A study of Mus musculus with 3 samples.

Results

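The sensory hair cells of the inner ear convert sound into current through a mechanically gated channel at the tips of their stereocilia, and the 10 genes described here encode parts of that apparatus. They are Tmc1, Tmc2, Tmie, Lhfpl5, Tomt, Cib2, Pcdh15, Cdh23, Loxhd1 and Ush1c, chosen by symbol from the 31053 genes in the deposited gene table, and each symbol matched 1 gene. They were followed in cells with at least 2 transcript counts (unique molecular identifiers, UMIs) of Pou4f3, a transcription factor gene that marks hair cells, and in all other cells of the same libraries. Single-cell RNA sequencing libraries (10x Genomics 3' v3) came from organoids of C57BL/6 mice, grown from cochlear progenitors that carry the surface receptor Lgr5. There were 3 libraries, 1 for each condition: expansion medium at passage 2 (day 8), day 5 of differentiation and day 25 of differentiation. Expansion medium was supplemented with N2 and B27, with EGF, IGF and bFGF at 20, 50 and 10 ng/mL, and with LPA, CHIR99021 and Y-27632 at 2.5, 3 and 10 um, as the labels write the unit. Cells of all 3 libraries had grown in it. The differentiation medium of days 5 and 25 held RA, Shh, BDNF, bFGF and A83-01, and LY4115775 was present until day 5 and then removed. All cells were released with 0.125% trypsin over 25 min, stained with DAPI and sorted as single living cells. The sex and age of the donor mice and the number of cultures behind each library were not given in the sources used here.

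In cochlear hair cells, TMC1 and TMC2 form the pore of the transduction channel, and TMIE, LHFPL5 and CIB2 are its partners. TOMT, a protein of the secretory pathway, is needed to bring TMC proteins to the hair bundle. The tip link that pulls on the channel is made of PCDH15 at its lower end and CDH23 at its upper end, and harmonin, the product of Ush1c, is a scaffold at the upper anchor. LOXHD1 is a stereocilia protein needed for hearing. In mouse cochlear hair cells Tmc2 is a gene of the first days after birth, and Tmc1 comes later and stays on.

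After filtering, 25617, 13188 and 6098 cells were kept in expansion, day 5 and day 25, with 182689983, 131684769 and 72142485 UMIs. Pou4f3 cells, as cells with at least 2 Pou4f3 UMIs are called below, numbered 153 (0.597% of kept cells), 329 (2.49%) and 1536 (25.2%), against 25464, 12859 and 4562 other cells. Their median depth was 7087, 8930 and 9611.5 UMIs, against 4651.5, 5825 and 8269 in other cells, so the class favours deep cells. Their median mitochondrial share was 8.61%, 5.29% and 8.59%, against 5.74%, 4.01% and 4.57% in other cells. The summed level of 13 hair cell markers in Pou4f3 cells was 1879, 4192 and 9034 CPM (UMIs summed over a class of cells and scaled to a common total), against 74.7, 110 and 308 CPM in other cells. Of these markers Ocm, Slc26a5, Cabp2 and Slc17a8 were at 0 in Pou4f3 cells of the expansion library, and none was at 0 on days 5 and 25. The summed level of 6 neuron markers in Pou4f3 cells was 141, 323 and 950 CPM, against 3.05, 30.8 and 30.4 CPM in other cells, and 6, 4 and 3 of the 6 were at least 2-fold higher in Pou4f3 cells. That of 6 supporting cell and progenitor markers was 201, 48.2 and 179 CPM, against 130, 53.2 and 49.1 CPM in other cells. Of these 6 markers, 4, 3 and 4 were at least 2-fold higher in Pou4f3 cells and 0, 2 and 0 lower. Called doublets were 8.50%, 4.78% and 2.65% of passed barcodes, below the expected 22.4%, 11.1% and 5.01%, so doublets remain. The libraries of day 5 and expansion shared 133 barcodes, those of day 25 and expansion 54, and those of day 25 and day 5 22. What these features add to the levels below was not tested.

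Both pore genes were higher at each later stage, and Tmc1 had the largest ratio of day 25 to day 5 among the members. In Pou4f3 cells Tmc1 (chr19:20783458-20954202 in GRCm38, minus strand, protein coding, as all members are) was measured at 2.10, 10.7 and 202 CPM in expansion, day 5 and day 25, from 3, 46 and 3642 UMIs. The exact 95% Poisson intervals were 0.433 to 6.13, 7.81 to 14.2 and 195 to 208 CPM, and they did not overlap. Tmc2 (chr2:130195194-130264445, plus strand) had 0, 69 and 927 UMIs. That is 16.0 CPM (12.5 to 20.3) on day 5 and 51.3 CPM (48.0 to 54.7) on day 25, and in expansion 0 UMIs allow up to 2.10 CPM at a limit of 3 UMIs over the class. Between days 25 and 5 Tmc1 was 18.9-fold higher on day 25 (14.1 to 25.8) and Tmc2 3.21-fold higher (2.51 to 4.16). When cells over 10% mitochondrial UMIs were left out, the Tmc2 difference of log2(CPM + 1) was 0.91, under the 2-fold line, against 1.62 with them. Between day 5 and expansion Tmc1 was 5.08-fold higher on day 5, with a wide interval of 1.63 to 25.5 because expansion had 3 UMIs, and Tmc2 was at least 7.62-fold higher. With 1 library in each condition these intervals cover counting error only, no test between conditions was possible, and differences of culture, library and condition cannot be told apart.

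**Figure D1:**
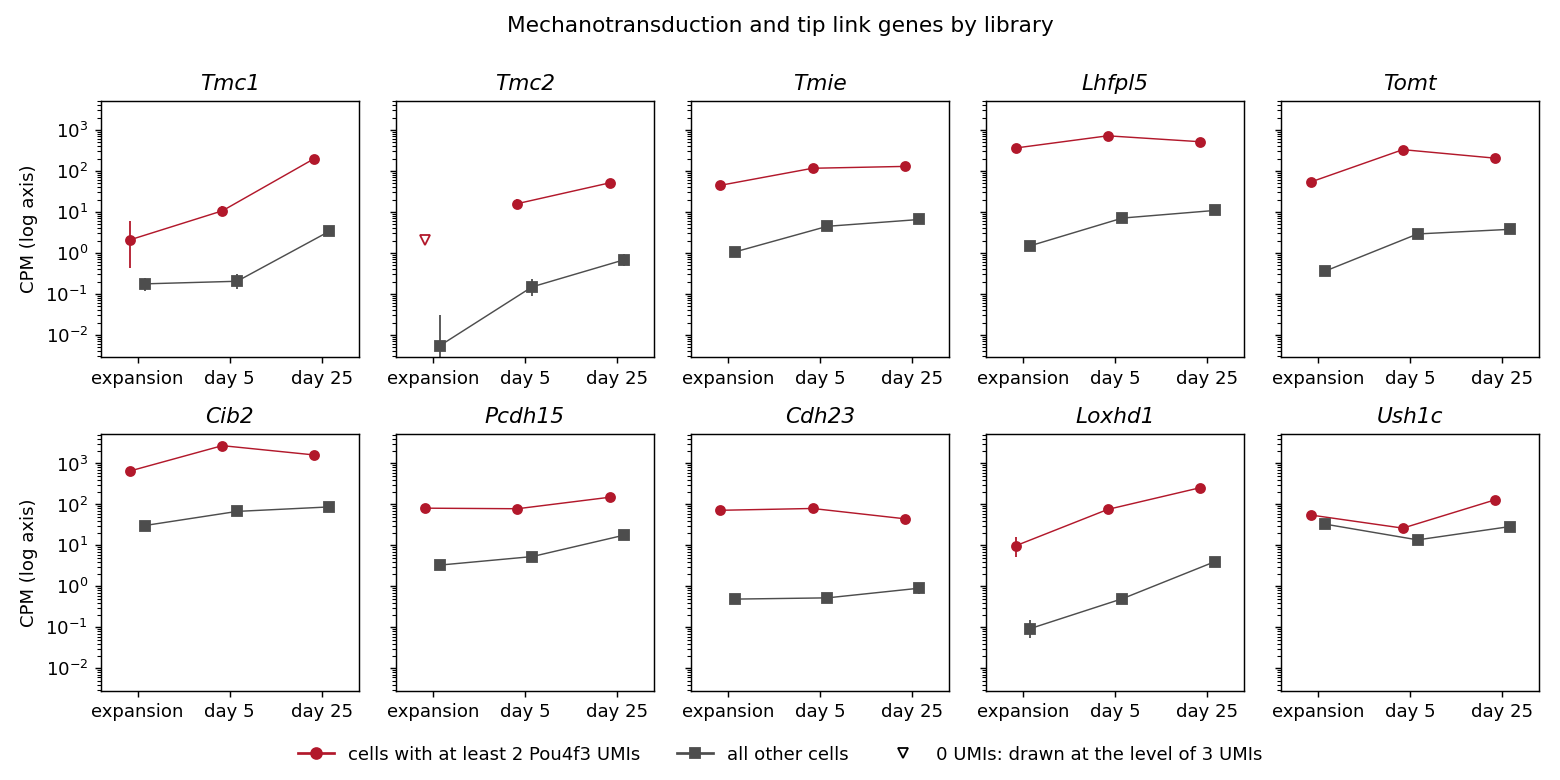
Summed level (CPM, log axis) of each of the 10 genes in expansion, day 5 and day 25, in cells with at least 2 Pou4f3 UMIs (red circles) and in all other cells (grey squares), with exact 95% Poisson intervals; the open triangle is a class with 0 UMIs, drawn at the level of 3 UMIs. Tmc1 and Loxhd1 in Pou4f3 cells are highest on day 25, at 202 and 255 CPM, and the Ush1c symbols of both classes lie closest together.

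The ratio of Tmc1 to Tmc2 was higher on day 25 than on day 5. On day 25 Pou4f3 cells held 3.93 Tmc1 UMIs for each Tmc2 UMI (3.65 to 4.23), and on day 5 they held 0.667 (0.449 to 0.982, from 46 and 69 UMIs). In expansion there was no ratio, with 3 Tmc1 UMIs against 0 of Tmc2. Since capture may differ between genes, the ratio is compared between libraries and its absolute size is not read as a ratio of molecules. On day 25 the ratio was 3.26, 4.15 and 3.94 in cells with 2 to 3, 4 to 7 and at least 8 Pou4f3 UMIs, with intervals that overlap. On day 5 it was 1.86 (0.689 to 5.50), 0.438 (0.152 to 1.12) and 0.565 (0.335 to 0.934) in the same classes, and the intervals of both days overlap in cells with 2 to 3 Pou4f3 UMIs but not in the other classes. The day 5 ratio without cells under 1% mitochondrial UMIs was 0.754 (0.503 to 1.12). The ratio was also higher on day 25 in other cells, so the shift was not particular to Pou4f3 cells. There it was 4.92 (3.44 to 7.21) on day 25 and 1.37 (0.729 to 2.62, from 26 and 19 UMIs) on day 5. Other cells of expansion held 32 Tmc1 UMIs and 1 of Tmc2.

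Cells were then sorted by which of Tmc1 and Tmc2 they held, after thinning each cell to 5000 UMIs so that depth was equal. This left 126, 209 and 1152 Pou4f3 cells in expansion, day 5 and day 25, and left out 27, 120 and 384 shallower ones. On day 25 it kept 854 of 878 cells with at least 2 Slc26a5 UMIs but 298 of 658 with fewer, so the former dominate the day 25 shares. On day 5 it left out 102 of the 138 cells with 2 to 3 Pou4f3 UMIs. Tmc1 alone was found in 0.794%, 4.78% and 43.6% of them, Tmc2 alone in 0%, 8.13% and 8.77%, and both in 0%, 0.478% and 14.6%. Neither was found in 99.2%, 86.6% and 33.1%. The exact 95% Clopper-Pearson intervals for Tmc2 alone overlapped between day 25 (7.20% to 10.6%) and day 5 (4.81% to 12.7%), whereas cells with Tmc1 alone or with both were more common on day 25. On day 25 Tmc2 was found in 25.1% (21.8% to 28.5%) of cells with Tmc1 and in 21.0% (17.4% to 24.9%) of cells without it, with intervals that overlap. Without thinning the same shares were 45.5% and 13.2%. In other cells thinned alike, Tmc1 was found in 0.0860%, 0.0505% and 1.13%, and Tmc2 in 0%, 0.0632% and 0.165%.

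**Figure D2:**
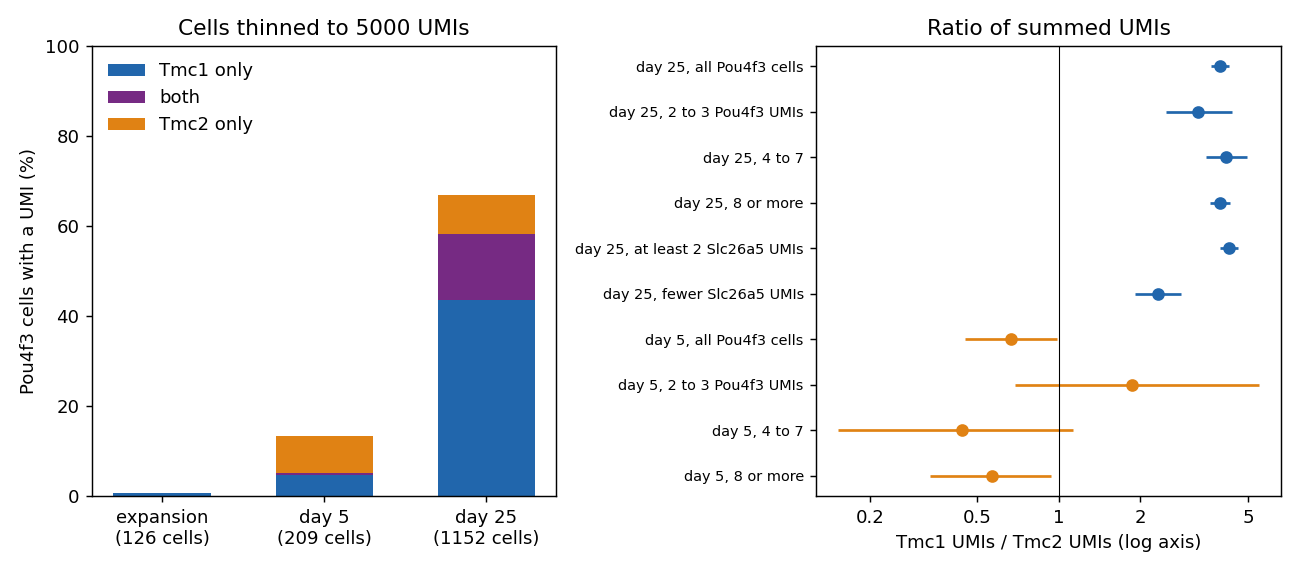
Left, share of Pou4f3 cells (%) with a UMI of Tmc1 alone, Tmc2 alone or both after thinning to 5000 UMIs, by library. Right, Tmc1 UMIs divided by Tmc2 UMIs (log axis) in classes of Pou4f3 cells of day 25 and day 5, with exact 95% intervals; the line marks equal counts, and the day 25 classes lie between 2.32 and 4.25, all to its right.

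The channel partners Tmie, Lhfpl5 and Cib2 were present in Pou4f3 cells of every library and within 2-fold between days 25 and 5. In Pou4f3 cells Tmie (chr9:110865711-110880113, minus strand) was at 44.8, 117 and 129 CPM in expansion, day 5 and day 25, from 64, 503 and 2340 UMIs. Lhfpl5 (chr17:28575641-28585679, plus strand), which links PCDH15 to the channel, was at 364, 722 and 519 CPM, from 520, 3114 and 9374 UMIs. Cib2 (chr9:54544794-54560218, minus strand), a calcium-binding protein that contacts the TMC proteins, was at 658, 2721 and 1612 CPM, from 940, 11733 and 29130 UMIs. All 3 were thus well above the counting limit in the few Pou4f3 cells of expansion medium, where Tmc2 had 0 UMIs. Between day 5 and expansion Cib2 was 4.14-fold higher on day 5 (3.87 to 4.43) and Tmie 2.61-fold (2.01 to 3.43), and Lhfpl5, at 1.99-fold (1.81 to 2.18), lay at the 2-fold line. The ratio of day 25 to day 5 was 1.11 for Tmie, 0.718 for Lhfpl5 and 0.592 for Cib2. With cells of 1 Pou4f3 UMI included, the Lhfpl5 difference changed sign, to a log2 difference of 0.26 in place of -0.48, and that of Cib2 was -0.08 in place of -0.76. The Tmie difference between day 5 and expansion depended on the class of cells: on the scale of log2(CPM + 1) it was 1.36, and 0.72 with cells that held 1 Pou4f3 UMI included. It was 0.21 in cells thinned to 2000 UMIs with a bound of at least 1 Pou4f3 UMI after thinning, a setting that changes depth and class together.

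Tomt (chr7:101898370-101906359, minus strand) had the largest ratio of day 5 to expansion among the partner genes. It was at 53.9, 332 and 206 CPM in Pou4f3 cells of expansion, day 5 and day 25, from 77, 1432 and 3721 UMIs. On day 5 it was 6.16-fold higher than in expansion (4.90 to 7.86), and on day 25 its ratio to day 5 was 0.620 (0.583 to 0.659), within 2-fold. With cells of 1 Pou4f3 UMI included, the log2 difference was 0.07 in place of -0.69. Tomt shares 1981 exonic bases with Anapc15 on the opposite strand, and the strand setting of the counting was not given in the sources used here. Anapc15, a subunit of the anaphase-promoting complex, was at 26.6, 28.1 and 16.2 CPM in Pou4f3 cells and at 36.4, 22.7 and 18.5 CPM in other cells. Tmie shares 244 exonic bases with Als2cl and Cib2 227 with Sh2d7, both also on the opposite strand. The part of these overlaps in the counts of the members was not tested.

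The windows of 250 bases before the transcript start were read for 8 members (Tmc2 and Loxhd1 aside) from RefSeq (GRCm38.p6), and 4 short motifs were searched on both strands. They are the E-boxes CAGCTG and CAGATG, which basic helix-loop-helix factors such as ATOH1 bind, GTTGCC, one side of the X-box of RFX factors, and AATTAAT, a core of POU4 sites. CAGCTG was found in windows of Lhfpl5, Tmie and Tomt, and in 13.0% of all 32851 windows of the table. AATTAAT was found in both windows of Tomt and in no other member, and in 2.46% of all windows. CAGATG (14.4% of all windows) and GTTGCC (10.4%) were in none of the 9 member windows. The windows of Tomt, with the most matches, and of Tmc1, with none and the largest difference between days 25 and 5, are shown on the minus strand, with matches on either strand in capitals (ATTAATT is AATTAAT on the other strand). A match is a stretch of letters and is not evidence of binding.
Tomt, chr7:101906360-101906609: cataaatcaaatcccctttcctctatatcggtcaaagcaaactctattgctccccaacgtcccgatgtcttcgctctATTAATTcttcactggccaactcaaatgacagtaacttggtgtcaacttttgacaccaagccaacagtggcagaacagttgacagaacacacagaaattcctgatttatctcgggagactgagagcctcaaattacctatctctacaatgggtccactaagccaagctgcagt
Tomt, second start, chr7:101903786-101904035: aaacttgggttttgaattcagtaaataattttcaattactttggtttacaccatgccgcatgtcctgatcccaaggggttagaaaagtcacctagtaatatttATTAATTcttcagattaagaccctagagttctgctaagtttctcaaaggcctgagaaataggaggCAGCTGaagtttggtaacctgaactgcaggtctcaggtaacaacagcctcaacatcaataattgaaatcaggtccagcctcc
Tmc1, chr19:20954203-20954452: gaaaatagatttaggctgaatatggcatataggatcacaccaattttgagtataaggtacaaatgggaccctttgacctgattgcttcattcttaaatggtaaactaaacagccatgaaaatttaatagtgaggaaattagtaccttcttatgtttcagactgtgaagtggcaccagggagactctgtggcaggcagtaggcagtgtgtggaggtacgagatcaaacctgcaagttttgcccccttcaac

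The tip link genes were present from the expansion library on. In Pou4f3 cells Pcdh15 (chr10:73099342-74649737, plus strand) was at 81.2, 78.6 and 150 CPM in expansion, day 5 and day 25, from 116, 339 and 2708 UMIs. Cdh23 (chr10:60302748-60696490, minus strand) was at 72.1, 79.8 and 44.8 CPM, from 103, 344 and 809 UMIs. The first 2 levels of each gene did not differ beyond counting error: day 5 over expansion was 0.969 for Pcdh15 (0.782 to 1.21) and 1.11 for Cdh23 (0.886 to 1.39). On day 25 the ratio to day 5 was 1.91 for Pcdh15 (1.70 to 2.14) and 0.561 for Cdh23 (0.494 to 0.638), each within 2-fold. With cells of 1 Pou4f3 UMI included, the Cdh23 log2 difference between days 25 and 5 was -0.0039 in place of -0.82, so its lower level on day 25 was not seen in that class. With cells of 1 Pou4f3 UMI included, the log2 difference between day 5 and expansion was -0.56 for Pcdh15, in place of -0.05, and -0.52 for Cdh23, in place of 0.14. With thinning to 2000 UMIs and at least 1 Pou4f3 UMI after it, they were -1.30 and -0.80. Pcdh15 passed 2-fold on day 25 over day 5 when cells with 1 Pou4f3 UMI or called doublets were included, or when CPM were averaged over cells.

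The remaining bundle genes differed from one another. Loxhd1 was at 9.80, 75.6 and 255 CPM in Pou4f3 cells of expansion, day 5 and day 25, from 14, 326 and 4609 UMIs. It was 7.72-fold higher on day 5 than in expansion (4.53 to 14.3) and 3.37-fold higher on day 25 than on day 5 (3.01 to 3.79), so it was higher at each step, as Tmc1 was. Ush1c (chr7:46195350-46238503, minus strand) was at 55.3, 26.4 and 129 CPM, from 79, 114 and 2339 UMIs, and was lowest on day 5. Its ratio was 0.478 for day 5 over expansion (0.356 to 0.646) and 4.89 for day 25 over day 5 (4.05 to 5.96). On the scale of log2(CPM + 1) the lower level on day 5 was -1.04, and it fell short of 2-fold at -0.82 for CPM averaged over cells and at -0.94 with a pseudocount of 5 CPM. In other cells Ush1c was also lowest on day 5, at 33.0, 13.7 and 28.8 CPM. Of the 4 members with enough counts in other cells, Ush1c (2.11-fold) and Pcdh15 (3.34-fold, 17.9 against 5.35 CPM) were higher on day 25 than on day 5 and 0 lower, where 16.2% of all genes tested were higher and 6.18% lower. Pcdh15, under 10 CPM in other cells of day 5, met the bound only through day 25 and could not be counted as lower. On day 5 against expansion Cib2 was higher in other cells (67.7 against 30.6 CPM) and Ush1c lower, the 2 members that could be tested, where 14.9% and 8.28% of all genes were.

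Counted together, 4 members were higher and 0 lower by 2-fold of CPM + 1 in Pou4f3 cells on day 25 than on day 5 (Tmc1, Tmc2, Loxhd1 and Ush1c). Over all 9142 genes tested, those with at least 10 CPM in either class and 10 UMIs in both, 17.9% were higher and 9.34% lower. The median log2 difference of the members was 0.54, beside 0.21 over all genes. On day 5, 6 members were higher (Tmc1, Tmc2, Tmie, Tomt, Cib2 and Loxhd1) and 1 lower (Ush1c) than in expansion, against 15.4% and 10.2% of 9092 genes, with medians of 1.64 for the members and 0.14 for all genes. On day 25, 7 were higher and 0 lower than in expansion, against 27.2% and 13.8% of 9464 genes, with medians of 1.40 and 0.35. Tmc1, Tmc2 and Loxhd1 were under 10 CPM in expansion and met the bound only through the later library. In the comparisons with expansion they could thus not be counted as lower, and they enter the medians too. The 3 comparisons share libraries and are not independent. The day 5 level of Tmc1 is close to the bound of 10 CPM, so on day 5 against expansion Tmc1 was under the bound and not counted with at least 3 Pou4f3 UMIs, with at least 1, with doublets kept, with at most 10% mitochondrial UMIs, and with thinning and at least 1 Pou4f3 UMI together.

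In every library most members were concentrated in Pou4f3 cells, and Ush1c was so least. On day 25 all 10 were at least 2-fold higher in Pou4f3 cells than in other cells, where 19.6% of 9747 genes were, and the median log2 difference was 4.77 beside 0.12 over all genes. On day 5, 9 of 10 were higher, beside 18.0% of 9447 genes, with medians of 4.87 and 0.02. In expansion 6 of the 7 members that could be tested were higher, beside 11.9% of 8780 genes, with medians of 4.47 and 0.04, and 0 were lower, beside 5.55%. Tmc1, Tmc2 and Loxhd1 were under the bound of 10 CPM there. In each library, members under 10 CPM in other cells met the bound only through Pou4f3 cells and could not be counted as lower. Ush1c was within 2-fold on day 5, at 26.4 CPM in Pou4f3 cells against 13.7 in other cells, and in expansion, at 55.3 against 33.0 CPM. It passed 2-fold on day 5 when CPM were averaged over cells and in expansion with thinning and a bound of at least 1 Pou4f3 UMI together. On day 5 Tmc1 was not counted with at least 3 Pou4f3 UMIs, with doublets kept and with at most 10% mitochondrial UMIs, and neither Tmc1 nor Tmc2 was with at least 1.

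On day 25 the ratio of Pou4f3 cells to other cells ran from 4.49 for Ush1c to 75.0 for Tmc2. Tmc1 was at 202 CPM in Pou4f3 cells against 3.37 CPM in other cells, a ratio of 59.9 (51.6 to 69.9). The ratio was 63.8 for Loxhd1, 54.6 for Tomt, 49.4 for Cdh23 and 47.6 for Lhfpl5. It was lower for Tmie (19.7), Cib2 (18.5), Pcdh15 (8.39, 7.79 to 9.04) and Ush1c (4.49, 4.21 to 4.79). The level in other cells can also be put as a share of that in Pou4f3 cells. Tmc1, Tmc2, Loxhd1, Tomt, Cdh23 and Lhfpl5 were at 1.33% to 2.10%, in the range of the hair cell genes Slc26a5 (1.13%), Slc17a8 (1.76%), Otof (2.46%) and Ocm (3.24%). Tmie was at 5.07%, Cib2 at 5.40%, Pcdh15 at 11.9% (11.1% to 12.8%) and Ush1c at 22.3% (20.9% to 23.8%). These low shares were not spread evenly over other cells: the 313 cells with 1 Pou4f3 UMI held 72 of the 182 Tmc1 UMIs and 19 of the 37 Tmc2 UMIs. Free RNA from broken cells can also leave hair cell transcripts in other cells, and its part was not tested. For the members at 1.33% to 2.10% no level of their own in other cells is read here.

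**Figure D3:**
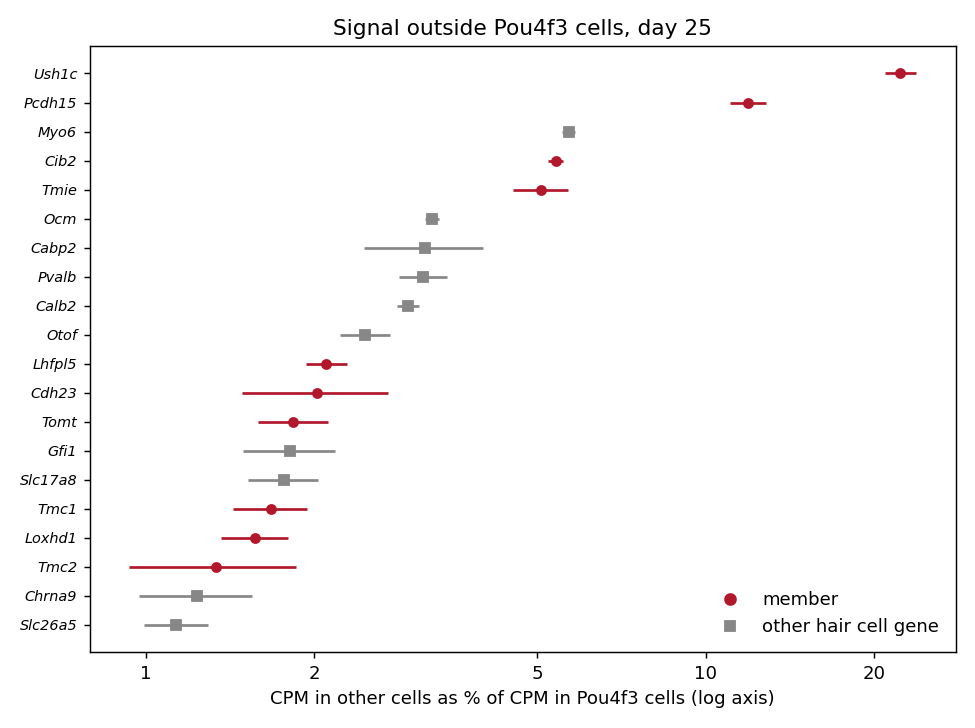
Level of each member (red circles) and of 10 other hair cell genes (grey squares) in other cells, as a percentage of the level in Pou4f3 cells on day 25 (log axis), with exact 95% intervals. Pcdh15 at 11.9% and Ush1c at 22.3% lie to the right of every other gene shown.

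Cells with 0 Pou4f3 UMIs were set apart by gates: at least 3 UMIs of the epithelial gene Epcam, or, with at most 2 of these, at least 5 UMIs in all of 5 mesenchymal genes. On day 25 the gates held 3431 and 144 cells with median depths of 9045 and 8269 UMIs. With cells of 1 Pou4f3 UMI included, the 13 hair cell markers summed to 169 CPM in the epithelial gate and 461 CPM in the mesenchymal one, so hair cell transcripts as a list were higher in the mesenchymal gate. Single markers varied: with 0 Pou4f3 UMIs Ocm, which encodes oncomodulin of outer hair cells, was at 20.4 CPM in the epithelial gate and 20.5 CPM in the mesenchymal one. Ush1c was at 30.1 CPM in the epithelial gate against 2.20 CPM in the mesenchymal one (a ratio of 13.7, 4.67 to 66.5), and Pcdh15 at 18.1 against 5.87 CPM (3.09, 1.56 to 7.18). In the mesenchymal gate 2.20 CPM is the level of 3 UMIs, so both genes were near the limit of counting there. Tmie had 261 UMIs (5.61 CPM) in the epithelial gate and 0 in the mesenchymal one, which allows up to 2.20 CPM. Of the 3 members that could be tested on day 25, Ush1c and Pcdh15 were higher in the epithelial gate, where 13.5% of all genes tested were higher and 14.1% lower, and Cib2, at 58.8 against 34.5 CPM, was within 2-fold. Ush1c and Pcdh15, under 10 CPM in the mesenchymal gate, met the bound only through the epithelial one and could not be counted as lower.

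The epithelial gate had the same lead in Ush1c at the other stages. On day 5 it held 17.6 CPM of Ush1c against 0.698 CPM in the mesenchymal gate, a ratio of 25.3 (13.7 to 52.9). Of the 2 members that could be tested on day 5, Ush1c was higher and 1 was within 2-fold. Beside them 11.8% of all genes tested were higher in the epithelial gate and 11.4% lower. In expansion it held 38.5 against 3.82 CPM, a ratio of 10.1 (4.32 to 31.1), and Cib2 was at 33.4 against 5.35 CPM. These were the 2 members that could be tested, and 13.3% of all genes were higher and 6.31% lower there. Ush1c on day 5, and Ush1c and Cib2 in expansion, were under 10 CPM in the mesenchymal gate. They met the bound only through the epithelial gate and could not be counted as lower in it. After thinning to 5000 UMIs, Ush1c was found in 13.9% of epithelial-gate cells on day 25 (12.6% to 15.2%), against 1.41% of mesenchymal-gate cells (0.171% to 5.00%).

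Levels were also read by the number of Pou4f3 UMIs in a cell, the bound of the class included. On day 25 the 313 cells with 1 Pou4f3 UMI, just outside the class, had 29.6 CPM of Tmc1, 7.82 of Tmc2, 130.5 of Lhfpl5 and 475 of Cib2. The 359 cells with 2 to 3, just inside it, had 116 CPM of Tmc1, 35.5 of Tmc2, 484 of Lhfpl5 and 1830 of Cib2. In cells with at least 8, Tmc1 was at 217 CPM and Tmc2 at 55.1, whereas Lhfpl5 (521) and Cib2 (1554) lay near their levels with 2 to 3. Cdh23 and Pcdh15 kept climbing, to 50.8 and 169 CPM with at least 8 against 21.4 and 81.0 CPM with 2 to 3. These classes differ in depth and mitochondrial share too: on day 25 their medians were 4222 UMIs and 1.84% with 2 to 3, and 14596 UMIs and 10.3% with at least 8, and the part of these in the levels was not tested.

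**Figure D4:**
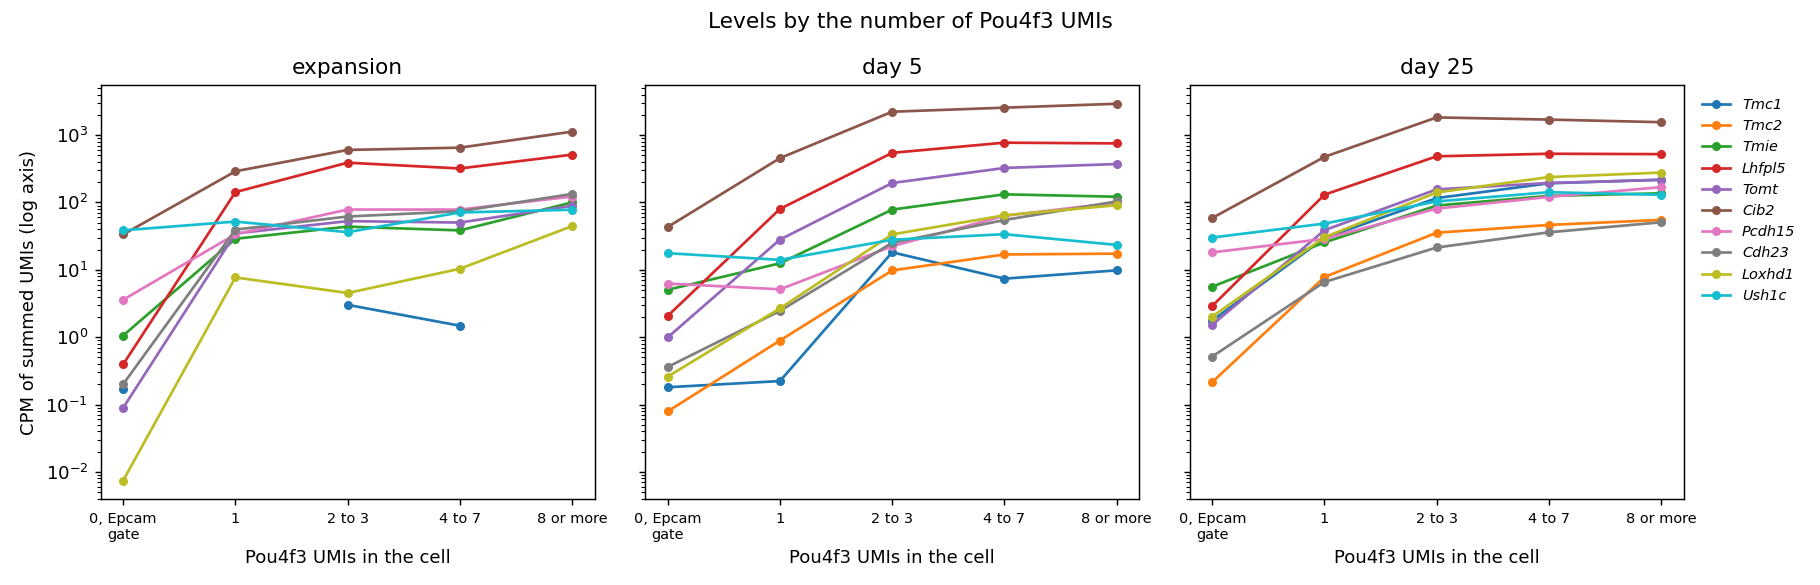
Summed level (CPM, log axis) of each member by the number of Pou4f3 UMIs in the cell, in expansion, day 5 and day 25; cells with 0 Pou4f3 UMIs are those of the epithelial gate, and classes with 0 UMIs of a gene have no point. On day 25 most members rise steeply up to 2 to 3 Pou4f3 UMIs, while Ush1c starts at 30.1 CPM with none.

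Day 25 Pou4f3 cells were split by Slc26a5, which encodes prestin, the motor protein of outer hair cells. The 878 cells with at least 2 Slc26a5 UMIs had a median of 12539.5 UMIs and 10.97% mitochondrial share, and the 658 cells with fewer had 4680 UMIs and 1.47%. Tmc1 was at 236 CPM in the cells with Slc26a5 and at 84.7 CPM in those with fewer, a ratio of 2.79 (2.50 to 3.12), and Tmc2 at 55.7 and 36.6 CPM, a ratio of 1.52 (1.28 to 1.82). The ratio of Tmc1 to Tmc2 UMIs was 4.25 (3.92 to 4.597) in the cells with Slc26a5 and 2.32 (1.91 to 2.82) in those with fewer, so the intervals did not meet. Pcdh15 was 3.04-fold higher (2.67 to 3.49) and Cdh23 2.36-fold higher (1.89 to 2.96) in the cells with Slc26a5. These and Tmc1 were the 3 members past 2-fold, where 9.89% of 8907 genes were higher and 3.33% lower, and no member was lower. Lhfpl5, at 510 and 548 CPM, and Cib2, at 1455 and 2135 CPM, were not higher in the cells with Slc26a5.

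Members were also compared by mitochondrial share, a split that overlapped the Slc26a5 split in part. Of the 230 day 25 Pou4f3 cells under 1%, 192 held fewer than 2 Slc26a5 UMIs, but 658 Pou4f3 cells did so in all. Slc26a5, depth and mitochondrial share were not separated, and the part of each was not tested. On day 25 the 230 Pou4f3 cells under 1% had 68.2 CPM of Tmc1 against 212 CPM in the 1306 cells at 1% or more, a ratio of 0.321 (0.258 to 0.394). Pcdh15 was at 35.2 against 159 CPM and Cdh23 at 14.7 against 47.2 CPM. Tmc1, Tmc2, Pcdh15, Cdh23 and Loxhd1 were lower by 2-fold in the cells under 1%, where 20.8% of 8733 genes were lower and 1.25% higher. Lhfpl5 did not differ beyond counting error, at 512 against 519 CPM (0.985, 0.911 to 1.06), and Cib2 was at 2493 against 1540 CPM. On day 5 the 59 cells under 1% had 0 UMIs of Tmc1 and of Cdh23 and 8 of Tmc2, in a class where 3 UMIs make 14.7 CPM, so their levels of these genes were near the limit of counting. There Tmc1, Pcdh15 and Cdh23 were counted as lower and Tmc2 as higher than in the 270 cells at 1% or more, beside 30.0% and 3.47% of 8462 genes. Tmc1 and Cdh23, at 0 UMIs, met the bound only through the 270 cells and could not be counted as higher. In expansion 1 Pou4f3 cell was under 1%.

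How much of the apparatus a single cell held was counted in Pou4f3 cells thinned to 5000 UMIs. On day 25 these were 854 cells with at least 2 Slc26a5 UMIs and 298 with fewer. The median cell had 3, 4 and 6 of the 10 members in expansion, day 5 and day 25, and the median other cell had 0 in each. Lhfpl5 and Cib2 were found together in 65.9% (56.9% to 74.1%), 89.5% (84.5% to 93.3%) and 90.2% (88.3% to 91.8%). A set with Tmc1 or Tmc2, Tmie, Lhfpl5 and Cib2 was found in 0 of 126, 17 of 209 and 333 of 1152 cells, which is 0%, 8.13% (4.81% to 12.7%) and 28.9% (26.3% to 31.6%). With Pcdh15 added the shares were 0%, 2.39% and 14.7%, and with Cdh23 as well 0%, 0.478% and 3.65%. In expansion the partner pair was thus found in most Pou4f3 cells and a pore gene in 0.794% of them, and a gene not found in a cell at this depth may still be expressed. In other cells thinned alike, the pair was found in 0.310%, 0.531% and 1.10%, and the set in 0, 0 and 4 cells. At full depth 0, 4 and 168 Pou4f3 cells held all 10 members, and 1 other cell, of day 25, did.

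**Figure D5:**
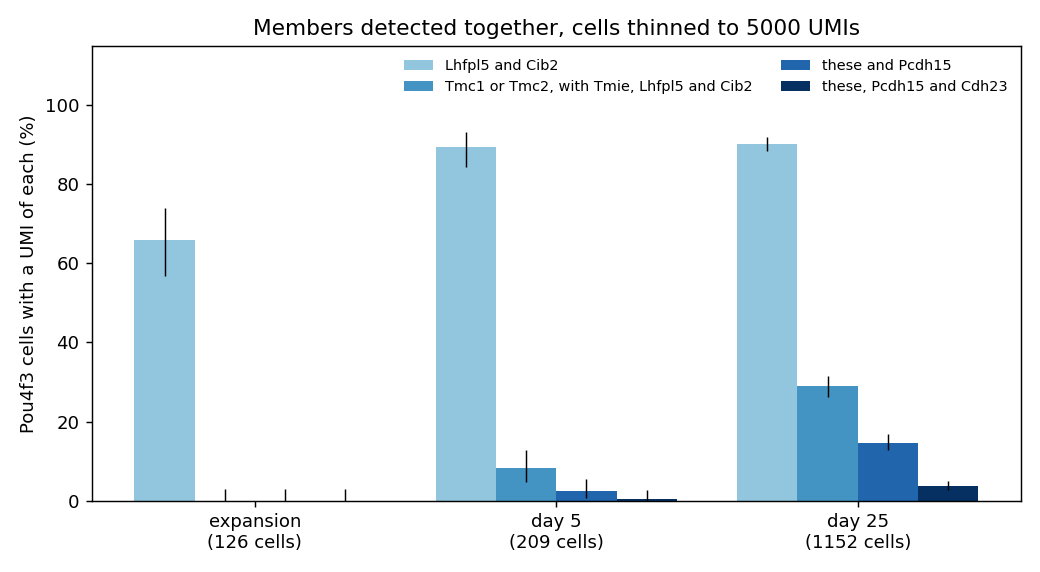
Share of Pou4f3 cells (%) in which a UMI of each named gene was found after thinning to 5000 UMIs, by library, with exact 95% Clopper-Pearson intervals. The pair Lhfpl5 and Cib2 reaches 65.9%, 89.5% and 90.2%, while the set with a pore gene reaches 0%, 8.13% and 28.9%.

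Of 30 companion genes (other Usher, link and bundle genes and relatives of the members), 19 could be tested on day 25, and 12 were higher and 2 lower in Pou4f3 cells than in other cells, beside 19.6% and 19.1% of all genes. Ptprq, a phosphatase of the shaft connectors, was at 561 CPM in Pou4f3 cells against 7.40 CPM in other cells. Clrn1, the clarin of the Usher protein network, was at 124 against 1.55 CPM, and Strc (stereocilin, of the top connectors) at 119 against 1.61 CPM. The lower genes were the TMC relative Tmc6, at 0.775 against 10.4 CPM, and the mechanosensitive channel Piezo1, at 0.664 against 10.5 CPM. Of other relatives, Tmc4, at 18.3 against 15.0 CPM, and Cib1, at 90.1 against 69.9 CPM, were within 2-fold, and Lhfpl4 was higher, at 63.5 against 1.46 CPM. On day 5, 13 of 19 were higher and 1, Tmc6, lower, beside 18.0% and 17.7% of all genes, and in expansion 11 of 14 were higher and 0 lower, beside 11.9% and 5.55%. Here and below, companions under 10 CPM in 1 class met the bound only through the other and could be counted in 1 direction only.

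Between days 25 and 5, 4 companions were higher and 3 lower on day 25 among 18 tested in Pou4f3 cells, beside 17.9% and 9.34% of all genes, so the share that was higher lay near that of all genes. Grxcr2, a gene of bundle growth, was at 189 CPM on day 25 against 48.7 on day 5 (3.88-fold, 3.38 to 4.49), and Ptprq at 561 against 155 CPM (3.62-fold, 3.35 to 3.92). The flippase gene Atp8b1 (47.0 against 15.5 CPM) and Tmem30b, of a flippase subunit (125 against 58.9 CPM), were also higher. Piezo2, a mechanosensitive channel, was at 7.25 CPM on day 25 against 52.2 on day 5 (0.139, 0.111 to 0.173), Whrn at 18.8 against 54.3 CPM and Myo7a, the motor at the upper tip link, at 91.7 against 193 CPM. Between day 5 and expansion 11 of 17 were higher and 1 lower on day 5, beside 15.4% and 10.2% of all genes, with Ptprq at 155 against 17.5 CPM and Strc at 86.5 against 10.5 CPM. The lower gene was Lhfpl2, at 12.3 against 44.8 CPM.

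The genes whose course was most like that of Tmc1 and Tmc2 were ranked by Pearson's r of log2(CPM + 1) over 17 profiles, which are classes of cells by library and Pou4f3 UMIs, among 12868 genes. For Tmc1 they were Otud3 (0.97), Mbd2 (0.97), Nhlrc2 (0.97), Urah (0.96) and Osbp2 (0.96). For Tmc2 they were Clec10a (0.99), Tango6 (0.98), March11 (0.98), Dytn (0.98) and Syt6 (0.98). Tmc1 and Tmc2 had an r of 0.93 with each other, with Tmc2 at rank 72 for Tmc1 and Tmc1 at rank 124 for Tmc2. Loxhd1 was at rank 140 for Tmc1, after Tmc2, and at rank 88 for Tmc2, ahead of Tmc1, and Cdh23 had the lowest r with both (0.51 and 0.54). The profiles share 3 libraries and depth differs among them, so these are descriptions only.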

How the data were processed

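The deposited matrices, 1 for each library, hold raw UMI counts per gene and barcode (29098, 14452 and 6613 barcodes), which the authors made with Cell Ranger. Per the file headers day 25 was made with version 3.1.0 and the other libraries with 3.0.1. Builds named in the submitters' processing notes are hg38 and GRCm38, and cell calling and strand settings are not given in the sources used here. Barcodes under 500 genes or above 20% mitochondrial UMIs were left out, as were doublets called with scrublet in scanpy 1.11.5 (30 components, 0.8% expected per 1000 barcodes). Gene positions came from the GENCODE annotation of GRCm38 by Ensembl ID.

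A 2-fold difference of CPM + 1 counted where 1 class had at least 10 CPM and both together 10 UMIs. A gene under 10 CPM in 1 class met the bound only through the other class. It could then be counted as higher in that other class but not as lower. Intervals are exact at 95% (Poisson for levels, conditional for ratios, Clopper-Pearson for shares), the limit for a count of 0 is 3 UMIs over the class, and both cover counting error only. No test was run, since each group held 1 library. Named genes were all 10 members, up to 4 companion genes in each comparison with the largest differences, relatives of members, hair cell genes beside a result, and the 5 genes most like Tmc1 and Tmc2, without ribosomal, mitochondrial and unnamed models. Anapc15, and Piezo1, Whrn, Tmem30b and Myo7a in small counts, were chosen after their values were seen. The members and gene lists were chosen with earlier results of these data known.

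On simulated data of 31053 genes for day 25 against day 5, 67 of 67 genes changed 3-fold were counted and 0 of 8458 unchanged ones. For day 5 against expansion 66 of 67 and 46 of 8390 were. Of genes changed 1.5-fold, which is under the 2-fold line, 0 of 67 and 1 of 67 were counted. The simulation held counting error only, so it says nothing of differences among cells, cultures or libraries. For day 5 against expansion the genes changed were taken from above the levels of Tmc1 and Tmc2. Alternatives were other bounds on Pou4f3, mitochondrial share and depth, doublets kept, thinning, CPM averaged over cells, 5 CPM as pseudocount, no bound on low levels, and the scalings of edgeR 4.0.16 (TMM) and DESeq2 1.42.0 (median of ratios).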

Additional observations from a re-analysis of the deposited data

How the results depend on the processing

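Of 100 alternative values of the member counts and Tmc1 to Tmc2 ratios, 93 stayed within 1.5 times the count or within the interval. No ratio crossed 1, and for counts a change of direction was not defined. The rule is wide for small counts: 4 members higher in place of 6, on day 5 over expansion after thinning, is within it. Day 5 over expansion was the least stable comparison. With at least 1 Pou4f3 UMI, 3 members were higher in place of 6 (Tmie at a log2 difference of 0.72, while Tmc1 at 1.52 and Tmc2 at 3.22 left because they were under the bound of 10 CPM). The count of lower members was 2 with thinning to 2000 UMIs and at least 1 Pou4f3 UMI together (Pcdh15 joined Ush1c) and 0 with CPM averaged over cells or with a pseudocount of 5 CPM, in place of 1. The day 25 ratio of Tmc1 to Tmc2 was 4.29 with at most 10% mitochondrial UMIs, 3.64 with thinning and at least 1 Pou4f3 UMI together and 3.63 for CPM averaged over cells, against 3.93. The cause was not tested. No ratio could be given for expansion under the alternatives, with 0 Tmc2 UMIs. Of the alternative log2 differences of single members, 319 stayed within the counting interval and 281 moved past it. No member counted as past 2-fold changed sign. Differences within 2-fold that did were those of Lhfpl5 and Tomt on day 25 over day 5 and of Cdh23 and Pcdh15 on day 5 over expansion. Tmc1 in Pou4f3 against other cells of expansion was past 2-fold, at 1.40, but under the bound on levels and so not counted. It changed sign, to -0.24, with at most 10% mitochondrial UMIs. No paired analysis was possible because each group held 1 library, and for the same reason no replicate could be left out. Depth limits the expansion library most, where 153 Pou4f3 cells put 3 UMIs at 2.10 CPM.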
